A study of Homo sapiens with 8 samples.

Results

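RNA-seq was performed on HepG2 cells, an established human line from a hepatic tumor, 48 h after transfection with the plasmid pGRHL2 or with the control plasmid pcDNA3, with 4 libraries per plasmid numbered 1 to 4. The pGRHL2 plasmid drove a flag-tagged cDNA of the epithelial transcription factor GRHL2 from an EEF1A1 promoter and also encoded enhanced green fluorescent protein, whereas pcDNA3 is a general expression vector that carried neither, and effects of the backbone cannot be told apart from those of GRHL2. Each library came from a pool of transfected and untransfected cells. The question here was how EEF1A1, whose promoter was on the plasmid, stood beside the other translation elongation factors of the same cells. The members were taken by gene symbol from the expression table: EEF1A1, EEF1A2, EEF1B2, EEF1D, EEF1G, EEF1E1, EEF2 and EEF2K. Of these 8 genes, 7 had a row among the 17561 genes of the table, and EEF1G had none. The members were selected on their log2 differences between pGRHL2 and pcDNA3 as well as on the promoter of the plasmid, so that these differences are given as a description, and calls of the members in the fit across all genes appear only as counts beside the share of all genes.

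During translation elongation, the GTPase eEF1A carries each aminoacyl-tRNA to the ribosome, the eEF1B complex recharges eEF1A with GTP, and the GTPase eEF2 moves the ribosome along the mRNA. EEF1A1 and EEF1A2 encode alternative forms of eEF1A, the first made in most tissues and the second mainly in neurons and muscle. EEF1B2 and EEF1D encode the exchange subunits of eEF1B, EEF1G encodes its structural subunit, and EEF2K encodes the kinase that inhibits eEF2. EEF1E1, also called AIMP3, is a scaffold of the complex that holds several aminoacyl-tRNA synthetases. Most mRNAs of the elongation factors and ribosomal proteins start with a C followed by a run of pyrimidines, the 5' terminal oligopyrimidine (TOP) element through which mTORC1 controls their translation.

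The letters around the annotated start sites are shown for 5 members, since the native EEF1A1 promoter is the element used on the plasmid and the TOP element lies at the start itself. Which stretch of it the plasmid held is not given in the sources used here. The sequences are from RefSeq (GRCh38.p14), which had an entry for 6 of the 8 members and none for EEF1A2 and EEF1D. Capitals mark AACCGG, which lies within the consensus AACCGGTT of Grainyhead-like factors such as GRHL2, the TATA elements TATAAA or TATATAA, and a run of at least 5 C or T that begins with a C within 5 bases of the start. Each stretch reads 5' to 3' on the strand of its gene and ends 20 bases into the transcript.
EEF1A1, chr6:73521013-73521182, minus strand: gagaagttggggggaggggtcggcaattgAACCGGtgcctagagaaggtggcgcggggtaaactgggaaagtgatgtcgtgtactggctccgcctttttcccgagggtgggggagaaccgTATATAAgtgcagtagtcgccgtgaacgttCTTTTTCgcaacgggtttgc
EEF2, chr19:3985444-3985543, minus strand: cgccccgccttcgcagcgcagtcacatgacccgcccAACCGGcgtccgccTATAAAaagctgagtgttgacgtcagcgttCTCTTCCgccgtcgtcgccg
EEF1B2, second of 2 starts, chr2:206159835-206159914, plus strand: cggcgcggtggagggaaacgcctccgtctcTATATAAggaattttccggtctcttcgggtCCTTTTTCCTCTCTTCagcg
EEF1E1, chr6:8102529-8102608, minus strand: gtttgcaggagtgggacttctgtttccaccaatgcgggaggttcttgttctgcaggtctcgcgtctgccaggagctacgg
EEF2K, chr16:22206218-22206297, plus strand: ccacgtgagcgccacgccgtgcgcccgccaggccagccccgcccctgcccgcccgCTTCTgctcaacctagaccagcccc

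EEF1A1, EEF2 and the second start of EEF1B2 each had a TATA element beginning 30 bases upstream and a pyrimidine run beginning exactly at the annotated start. The run was 7 bases long in EEF1A1 and in EEF2 and 16 bases long in EEF1B2. The other annotated start of EEF1B2 had neither TATA element and a run of only 4 bases that began 4 bases upstream. In EEF2K, a run of 5 bases began 5 bases upstream of the start, while EEF1G and EEF1E1 had runs of 4 and 3 bases. A run of at least 5 bases near the start was found in 21.1% of all 35116 RefSeq promoters and in 74.4% of the 78 promoters of cytosolic ribosomal protein genes.

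The 300-base windows, from 250 bases before to 50 bases after the start, were also searched on both strands for the Grainyhead-like letters. The full AACCGGTT was in none of the members' windows and in 0.134% of all promoters. EEF1A1 held its 7-base part AACCGGT, found in 0.772% of all promoters, 121 bases before its start. The 6-base part AACCGG, which is contained in both longer forms, also began 44 bases before the start of EEF2 and 193 bases before that of EEF2K. AACCGG was in 7.23% of all promoters and in 9.45% of the promoters of genes in the expression table. Among the 78 promoters of cytosolic ribosomal protein genes, AACCGG was in 15.4% and AACCGGT in 0%. TATAAA was in 11.5% of all promoters and TATATAA in 2.57%. These matches describe letters and do not show that a factor was bound.

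The expression values were log2 levels that the authors derived from read counts and divided by the mean length of each gene's annotated transcripts. Levels of different genes are set side by side with the limit that this mean can differ from the length of the transcript expressed. The library medians lay between 6.71 and 6.73. No read counts were used here, so the depth of the libraries is unknown and no counting error was computed. The transform shrinks differences of genes with few reads. Libraries with the same replicate number averaged to the same level in every gene, so each pGRHL2 value is mirrored by a pcDNA3 value and the data hold 4 pair differences per gene. Groups that do not overlap therefore mean only that the 4 pair differences have the same sign, and not that independent libraries were separated. The mean of these differences is the log2 fold change of pGRHL2 over pcDNA3 (log2 FC). The value after ± is their SD, which gives the spread of the pairs and not the standard error of the mean. In bulk RNA, fewer cells making a transcript cannot be told apart from less transcript per cell. GRHL2 was called higher in pGRHL2, as the labels require, with a log2 FC of 9.48 ± 0.566 (SD of 4 pairs). All 8 hepatocyte markers were in the table at levels of 9.83 to 17.1, and 0 of them were called by limma. An unadjusted p under 0.05 was found for 1 of them, beside 16% of all genes. Of the markers of other cell types, 2 of 6 for fibroblasts were listed (5.08 to 5.82), 3 of 5 for leukocytes (4.02 to 13.3, the highest being LYZ), 2 of 4 for endothelium (1.91 to 5.43) and 4 of 5 for neurons and muscle (0.281 to 7.55). Of these other markers, only MYH7 was called, higher in pGRHL2 at a level of 0.28.

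The elongation factors ran from the very top of the levels in HepG2 cells to below the median of all genes, which was 6.72. EEF1A1 ranked 4 among all genes with a mean level of 16.49, and EEF2 ranked 6 with 15.58. Above EEF1A1 stood AFP (17.11) and ALB (16.88), the fetal and adult serum albumins secreted by liver cells, and FTL (16.59), the ferritin light chain. Just below it came the cytoskeletal actin ACTB (15.62), EEF2 and the RNA-binding protein HNRNPA1 (15.57). EEF1B2 ranked 51 with 13.81. EEF2K (8.76, rank 4750) and EEF1E1 (8.72, rank 4834) differed by less than the spread of either gene over the libraries. EEF1A2 followed at 6.32 and EEF1D at 5.27.

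**Figure D1:**
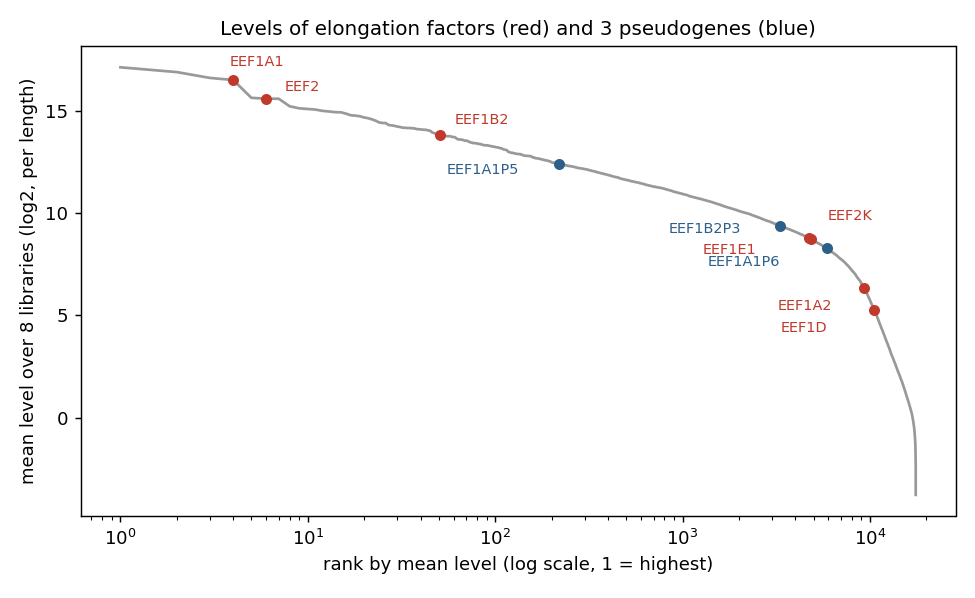
Mean level over 8 libraries (log2 per length, vertical axis) of all 17561 genes against their rank (horizontal log axis), with the 7 elongation factors in red and 3 pseudogenes in blue. EEF1A1 and EEF2 sit at ranks 4 and 6, EEF1A1P5 lies at 12.41 between EEF1B2 and EEF2K, and EEF1D is lowest of the named genes at 5.27.

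EEF1D and EEF1G stood apart from their partner EEF1B2, although all of them form the same protein complex. EEF1D had rank 10553 compared with 51 for EEF1B2, and EEF1G was not listed. The gene models of GENCODE release 44 (hg38) give facts that go with these levels. EEF1G (ENSG00000254772, chr11:62559596-62574086, minus strand) shares 99.7% of its exon bases with the overlapping protein-coding gene ENSG00000255508 on the same strand. EEF1D (ENSG00000104529, chromosome 8, minus strand) shares 34% of its exon bases with other genes, and all 54 of its transcripts aligned at 100% identity to an alternate contig of hg38. For EEF1B2 (chr2:206159585-206162928, plus strand), the shared proportion was 16.4%.

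The same 2 features were counted over all 178 translation genes listed here, a comparison chosen after these levels were seen. A copy of at least 98% identity on an alternate contig was found for 8 genes, EEF1D, VARS1 and RPS18 among them. Of these, 7 were in the table, with a median level of 6.45 and a range of 0.447 to 14.1, and RPS18 was not listed. RPL41 (14.06), RPS7 (14.02) and RPL9 (12.58) of this class had high levels. A further 4 genes (EEF1G, TSFM, EIF3L and RPL10) shared at least 50% of their exon bases with another gene, and 3 of them were listed, with a median level of 11. The remaining 166 genes, of which 165 were listed, had a median level of 11.6. A level under 7 was found for 4 of the 7, 1 of the 3 and 11 of the 165, respectively. EEF1D, whose level prompted the count, is among the 4. Reads were counted without strand, above a minimum alignment quality and only where they fell in a single gene. Whether the authors' index held alternate contigs is not given in the sources used here. The part of these features in the levels of EEF1D and EEF1G was not tested.

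Among the aminoacyl-tRNA carriers, EEF1A1 was slightly higher in every pGRHL2 library than in any pcDNA3 library. EEF1A1 (ENSG00000156508) lies on the minus strand of chromosome 6 from 73489308 to 73525587. Its levels in pGRHL2 libraries 1 to 4 were 16.56, 16.55, 16.58 and 16.52. In pcDNA3 libraries 1 to 4 they were 16.41, 16.42, 16.39 and 16.46. The groups did not overlap, and the gap was widest in pair 3 and narrowest in pair 4. The log2 FC was 0.134 ± 0.0552 (SD of 4 pairs), a 1.1-fold difference.

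EEF1A1 was the only 1 of the 7 listed members called in the limma fit across all genes at an adjusted p under 0.05, a rule that called 2.19% of all genes, with 1.69% called higher and 0.501% called lower. Nothing is read from this count, because the same contrast was used to choose the members, and it was 0 when replicate 1, 2 or 3 was left out.

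Other genes of high level differed by as much as EEF1A1. Of the 1757 genes with a mean level at or above the 90th percentile of the table (10.26), 46 (2.618%) had a log2 FC at or above that of EEF1A1, and 98 (5.578%) were higher in pGRHL2 without overlap. In the whole table, 915 genes (5.21%) had a log2 FC as high. When a smooth trend of each pair difference on the level was removed, a setting chosen after the data were seen, the log2 FC of EEF1A1 was 0.0644.

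**Figure D2:**
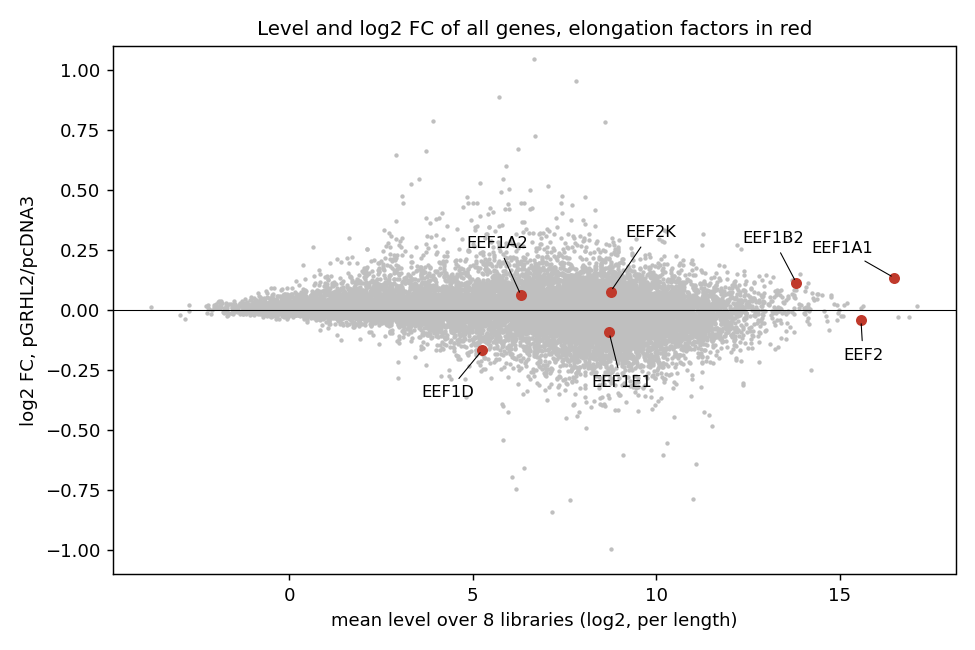
Log2 FC (pGRHL2/pcDNA3, vertical axis) against the mean level over 8 libraries (log2 per length, horizontal axis) for 17558 genes, with the elongation factors in red. EEF1A1 lies at the right end with 0.134, EEF2 beside it with -0.0422, and 3 genes including GRHL2 fall outside the drawn range.

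The level of the plasmid-borne gene was also set beside that of the native gene whose promoter it used, over the pooled cells of each library, a comparison singled out after the values were seen. In pGRHL2 libraries 1 to 4, GRHL2 stood at 16.22, 16.49, 16.87 and 16.33, against 7.25, 6.98, 6.61 and 7.15 in pcDNA3. Its mean in pGRHL2 was 16.47, beside 16.55 for EEF1A1. GRHL2 was above EEF1A1 in library 3 and below it in the others. Since the pair means are equal in each gene, the values of single libraries reflect only pair differences, and nothing is read from this order. The GRHL2 values join native and plasmid transcripts and use the length of the native ones, and the libraries include cells without plasmid.

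EEF1A2 was far below EEF1A1 and showed no such separation. Its levels in pGRHL2 libraries 1 to 4 were 6.41, 6.24, 6.40 and 6.34, and in pcDNA3 they were 6.23, 6.39, 6.24 and 6.29. The groups overlapped, with pair 2 lower in pGRHL2 and the other pairs higher. Its log2 FC was 0.0612 ± 0.152. EEF1A1 exceeded EEF1A2 by 10.03 to 10.31 on the log2 scale in all 8 libraries. EEF1A2 lies on chromosome 20 from 63488013 to 63499239, minus strand, and shares 0% of its exon bases with other genes.

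**Figure D3:**
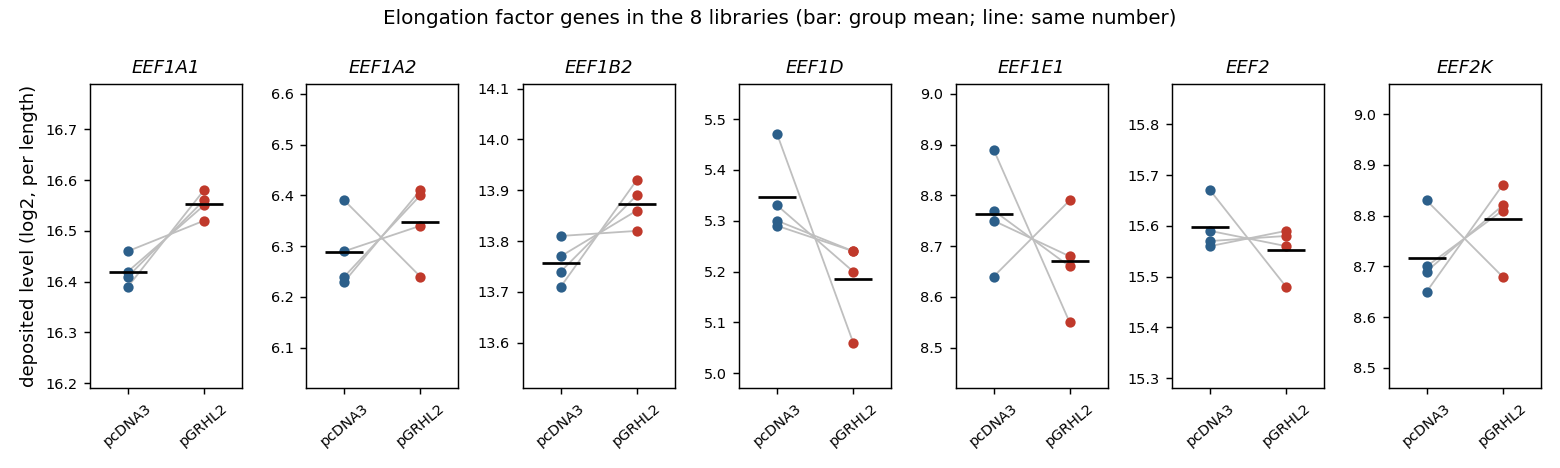
Levels (log2 per length) of the 7 listed elongation factors in the pcDNA3 (blue) and pGRHL2 (red) libraries, each panel spanning the same length of log2 scale, with group means as bars and lines joining libraries of the same number. The groups do not overlap for EEF1A1 and EEF1B2, higher in pGRHL2, and for EEF1D, lower in pGRHL2.

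The exchange subunits of eEF1B differed in direction from each other. EEF1B2 stood at 13.86, 13.89, 13.82 and 13.92 in pGRHL2 libraries 1 to 4. In pcDNA3 it stood at 13.77, 13.74, 13.81 and 13.71. The groups were separated, but in pair 3 by only 0.00542. The log2 FC of EEF1B2 was 0.114 ± 0.0862, a 1.08-fold difference.

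EEF1D was lower in all pairs. Its pGRHL2 values were 5.24, 5.06, 5.24 and 5.20, and its pcDNA3 values were 5.30, 5.47, 5.29 and 5.33. Library pair 2 lay apart with a difference of -0.418, while the other pairs differed by -0.0554 to -0.129. The log2 FC was -0.166 ± 0.172, and it was -0.0814 without replicate 2. Groups that did not overlap were thus found for 3 of the 7 members, beside 24% of all genes (13.4% higher and 10.5% lower), and nothing is read from this count either.

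The remaining members had groups that overlapped. EEF1E1 (chr6:8073360-8102559, minus strand), the synthetase scaffold, was at 8.68, 8.66, 8.55 and 8.79 in pGRHL2 and at 8.75, 8.77, 8.89 and 8.64 in pcDNA3. Its log2 FC was -0.0926 ± 0.199, with pair 3 at -0.341 and pair 4 at 0.145. Of its exon bases, 18.8% are shared with the read-through gene EEF1E1-BLOC1S5.

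EEF2 (ENSG00000167658, chr19:3976056-3985463, minus strand), the translocation factor, was at 15.59, 15.56, 15.58 and 15.48 in pGRHL2. In pcDNA3 it was at 15.56, 15.59, 15.57 and 15.67. Its log2 FC was -0.0422 ± 0.103, and only pair 4 moved by more than 0.1. Without replicate 4, the log2 FC of EEF2 was 0.00746. The difference in level between EEF1A1 and EEF2 ran from 0.97 to 1.04 in the pGRHL2 libraries and from 0.78 to 0.86 in the pcDNA3 libraries. These ranges did not overlap. They contain the difference of EEF1A1 itself, on which the members were selected, so nothing is read from this separation.

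EEF2K (chr16:22206278-22288738, plus strand), the inhibitory kinase of eEF2, was at 8.82, 8.86, 8.81 and 8.68 in pGRHL2 and at 8.69, 8.65, 8.70 and 8.83 in pcDNA3. Pair 4 ran against the other pairs, at -0.147 compared with 0.118 to 0.208. The log2 FC was 0.0772 ± 0.155. Pair 4 was thus where EEF1A1, EEF2 and EEF2K each had their lowest difference, while EEF1B2 and EEF1E1 had their highest difference there.

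**Figure D4:**
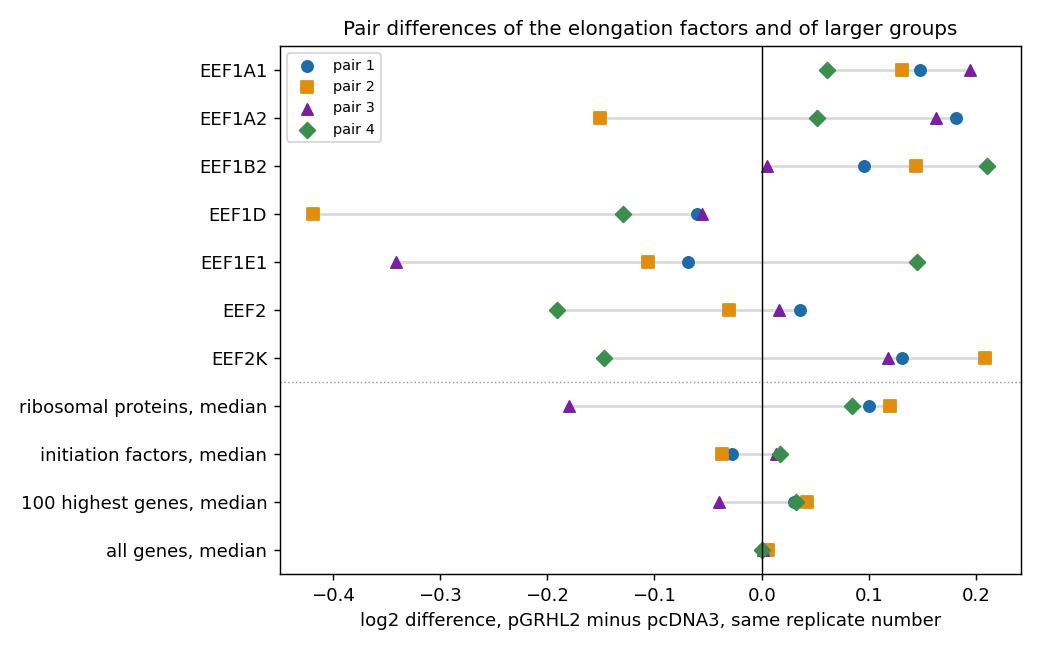
Log2 difference between pGRHL2 and pcDNA3 libraries of the same number (horizontal axis, 1 symbol per pair) for each elongation factor and for the medians of ribosomal protein genes, initiation factors, the 100 highest genes and all genes. EEF1A1 and EEF1B2 lie to the right of 0 in all pairs and EEF1D to the left, whereas the ribosomal protein median is at -0.18 in pair 3 and at 0.084 to 0.12 in the others.

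EEF1A1 has many processed copies in the genome, and some of them were listed with values of their own. Its transcripts aligned with at least 90% identity over at least 50% of their length at 19 other loci, of which 3 reached 98%. The closest was EEF1A1P5 (99.71%, chr9:133019423-133021169), followed by EEF1A1P6 (99.42%, chromosome 7) and EEF1A1P13 (98.31%, chromosome 5). EEF1A1P5 stood at 12.41, EEF1A1P6 at 8.28 and EEF1A1P13 at 2.40. Farther copies were EEF1A1P11 (97.26%) at 0, EEF1A1P9 (96.74%) at 0.92 and EEF1A1P19 (96.62%) at 2.96, so that levels did not follow the order of identity. The methods set a minimum alignment quality for counting, which can leave out reads that align equally well to several loci. How many reads were lost in this way is unknown for transcripts so alike. The division between EEF1A1 and EEF1A1P5 is uncertain.

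The most abundant copies of EEF1A1 and EEF1B2 overlapped between the groups. EEF1A1P5 had a log2 FC of 0.107 ± 0.149, with pair differences from -0.0141 to 0.324, highest in pair 3 and lowest in pair 4, as in EEF1A1. EEF1A1 exceeded EEF1A1P5 by 4.02 to 4.14 in all libraries, and the groups overlapped in this difference. EEF1A1P6 had a log2 FC of 0.0701 ± 0.151. For EEF1B2, 6 other loci were found, of which EEF1B2P6 (99.08%) was at 2.30 and EEF1B2P3 (99.03%) at 9.38, with a log2 FC of 0.0871 ± 0.114 for EEF1B2P3. The other copies listed were EEF1DP7 (1.75), EEF1E1P1 (5.28) and EEF1GP3 (-0.06). None of the 11 pseudogene rows was called by limma. An unadjusted p under 0.05, a rule met by 16% of all genes, was found for 1 of them, EEF1A1P19, with a log2 FC of -0.0577 ± 0.0296. EEF1A2, EEF1E1, EEF2 and EEF2K had 0 other loci by the same criteria.

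The genes with pair differences most like those of EEF1A1 were found by the root mean square (RMS) of the differences over the 4 pairs, among the same 1757 genes of high level. The nearest was ZMAT2, a spliceosome protein, at an RMS of 0.0224 and a level of 10.33. It was followed by ITM2C (0.0389), the protease subunit CAPN1 (0.0429), the ribosome-associated scaffold RACK1 (0.0459) and LAD1 (0.046), a component of epithelial basement membranes. RACK1 was the most abundant of them at 14.15. Without the limit on level, 5 other genes were nearest (RIMBP3, ZDHHC22, CNKSR1, MYO1A and WARS2), with 0 shared. With 4 pairs, such likeness is a description only.

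The genes that modify the elongation factors had no call. Of 13 enzymes, among them the lysine methyltransferases of eEF1A and the DPH enzymes that make the diphthamide of eEF2, 0 were called in either direction at an adjusted p under 0.05 by limma, and 2 had an unadjusted p under 0.05, a rule met by 16% of all genes. Their median log2 FC was -0.065, beside 0.0017 for all genes. The values ran from -0.135 ± 0.131 in DPH1, which helps start diphthamide synthesis, to 0.202 ± 0.133 in DPH5, which methylates its intermediate. DPH5 was higher in pGRHL2 without overlap, and DNAJC24 (-0.118), DPH6 (-0.0759) and DPH7 (-0.0648) were lower without overlap, beside 24% of all genes without overlap.

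The regulators of EEF2K and mTORC1 also had 0 of 16 genes called, with 2 at an unadjusted p under 0.05 (16% of all genes) and a median of -0.019. The lowest was PRKAA2, a catalytic subunit of the energy sensor AMPK, at -0.195 ± 0.119. The other catalytic subunit, PRKAA1, was at -0.154 ± 0.0859. RPS6KB2, an S6 kinase, was highest at 0.0851 ± 0.0479. The groups did not overlap for 5 of the 16 genes, beside 24% of all genes, with PRKAA1, PRKAA2 and RPS6KA1 lower and RPS6KB2 and PPP2CA higher in pGRHL2.

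Among the other translation genes, 0 were called in each list by limma, and the counts at an unadjusted p under 0.05 stand beside 16% of all genes. The list of 5 other cytosolic elongation genes held EIF5A, EIF5A2 and EEFSEC. It also held VARS1 and TPT1, which are not elongation factors themselves. These genes (0 with an unadjusted p under 0.05) ran from -0.118 in EIF5A2 to 0.146 ± 0.252 in TPT1. The 5 mitochondrial elongation genes (0) were within -0.0119 (GFM2) and 0.0419 (GUF1). Of 6 genes for termination and ribosome rescue, 5 were listed (0), from -0.089 in the ribosome-splitting ATPase ABCE1 to -0.0068 in PELO, and GSPT2 was not listed. The 36 initiation genes (3 with an unadjusted p under 0.05) ran from -0.18 ± 0.147 in EIF1B to 0.14 ± 0.0367 in PABPC1, the poly(A)-binding protein. PABPC1, also a TOP mRNA, was higher in all pairs, by 0.0933 to 0.179. The 10 multisynthetase genes (0), which encode the partners of EEF1E1, ran from -0.116 in AIMP2 to 0.0852 in EPRS1.

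The ribosomal protein genes, most of which share the pyrimidine start with EEF1A1, EEF1B2 and EEF2, went in opposite directions in different pairs. Of 79 genes, 78 were listed, 0 were called by limma and 0 had an unadjusted p under 0.05, beside 16% of all genes. Their median log2 FC was 0.031. The values ran from -0.0931 ± 0.208 in RPL30 to 0.148 ± 0.184 in RPL23. In pairs 1, 2 and 4 the medians were 0.1, 0.12 and 0.084, with 65, 68 and 67 of the 78 genes higher in pGRHL2. In pair 3 the median was -0.18 and only 8 of 78 were higher. EEF1A1 had its highest difference in that pair (0.194), and EEF1B2 its lowest (0.00542). Over the 100 genes with the highest level, the medians were 0.03, 0.042, -0.04 and 0.032 in pairs 1 to 4.

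**Figure D5:**
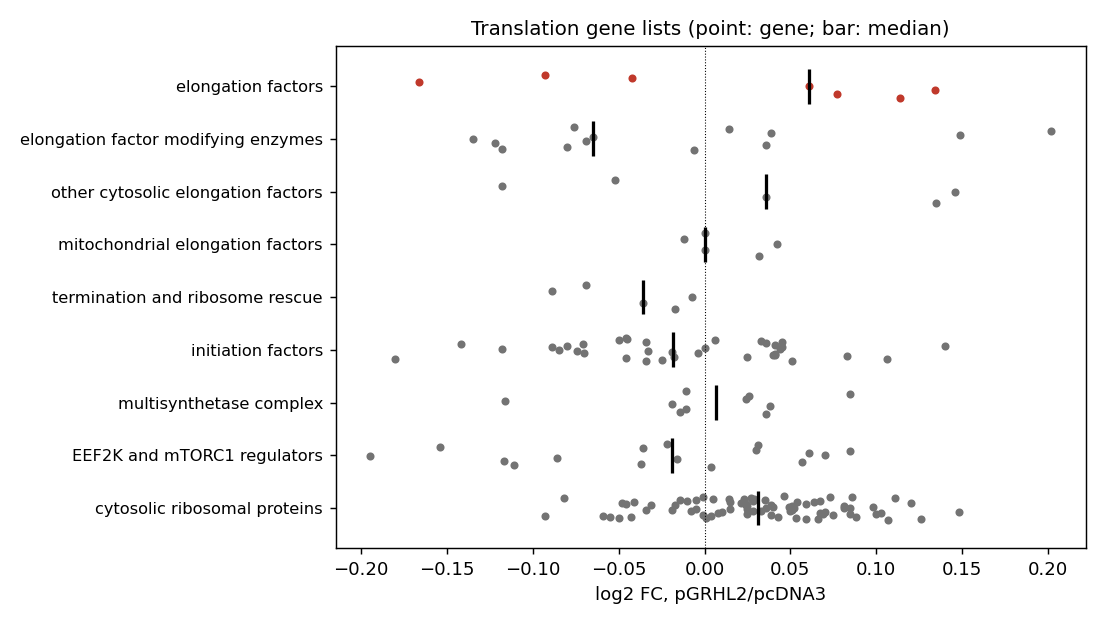
Log2 FC (pGRHL2/pcDNA3, horizontal axis) of the elongation factors (red) and of the genes of 8 translation lists (grey), 1 point per gene with the median of each list as a bar. All medians lie between -0.065 and 0.061, and the elongation factors run from -0.166 to 0.134.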

How the data were processed

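RNA from HepG2 cells was sequenced in 4 pcDNA3 and 4 pGRHL2 libraries, grouped by their labels. According to the methods, the authors mapped reads to hg38 and counted them over exons (unstranded, union mode, with a minimum alignment quality). They left out weakly covered genes, used the rlog transformation and divided by mean transcript length. The submitters' processing notes name HISAT2 2.2.1, HTSeq 0.9.1 and DESeq2 1.40.2. The deposited table is named FPKM but held log2 values: 3.71% were below 0, and the slope of level on log2 transcript length was -0.864 among the 1754 least variable genes. The table holds 0 columns of other samples, and 1 stray character was removed from a value.

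The means of same-numbered libraries were identical in 17561 of 17561 genes (largest spread 1.5e-13), a step not described in the methods, so that a correlation of their deviations is fixed by construction and cannot serve as a check of pairing. The replicate number was therefore used as a block, leaving 3 residual degrees of freedom in place of 6. Differences were fitted with limma 3.58.1 (trend, R 4.3.3) over all genes with Benjamini-Hochberg adjustment and a threshold of 0.05, after testing on simulated data. The study describes its replicates as independent biological ones, while the labels give only numbers. Where that does not hold, p-values measure only the spread between these samples.

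Members and lists were chosen with earlier results of these data known. Genes named were the members, their pseudogenes, called list genes, the extremes of each list, the level neighbours of EEF1A1, its 5 nearest genes and GRHL2. Other genes of the lists were named after their values were seen. Copies were sought with minimap2 2.31-r1302 (at least 90% identity over at least 50% of a transcript) and exon overlaps with GENCODE release 44, which matched 99.9% of symbols. The alternatives are named in the closing section.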

Additional observations from a re-analysis of the deposited data

Results flagged for a closer look

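In the groups of 4 libraries, 2 of 36 groups examined over 18 genes (the members and their pseudogenes) held a library whose distance to the nearest other library took up more of the group's range than Dixon's limit allows, which chance gives in about 1 in 20 groups. Both concern EEF1DP7, a pseudogene of EEF1D with a mean level of 1.75: pGRHL2 replicate 3 was at 1.78 and pcDNA3 replicate 3 at 1.72, with the nearest other library of each group at 1.75. The 2 values are mirror images, since the pair means are equal, so they count as a single observation.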

How the results depend on the processing

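Main counts over all genes were 297 higher and 88 lower. Without the replicate block, in a fit that counts mirrored pairs as independent, 1821 were higher and 1427 lower, all 385 main calls were kept, 2 members were called (EEF1A1 and EEF1B2), and list calls went from 0 to 2 higher and 1 lower for modifying enzymes, 1 and 2 for initiation, 3 lower for regulators, 1 lower for termination and 2 higher for ribosomal proteins. Calls were 503 higher and 221 lower with arrayWeights, 495 higher after rescaling to equal totals without GRHL2 (84.2% of calls higher, compared with 297 of 385), 63 higher with a mean level of at least 5 (43.8%), 77 higher and 10 lower at an adjusted p under 0.01, and 193 higher with the level trend removed, a setting added after seeing the data. Leaving out a replicate gave 79 to 156 higher, 8 to 68 lower, 0 to 1 members and 0 to 1 ribosomal protein genes higher (1 without replicate 3). The call of EEF1A1 was lost, leaving 0 members called, with robust eBayes, a mean level of at least 5, an adjusted p under 0.01, or the trend removed (log2 FC 0.0644), and without replicate 1, 2 or 3. The cause of these losses was not tested. Apart from EEF1B2, the block changed no member's call.

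Member log2 FC stayed within 1 SD of the main value in 27 of 28 values under settings other than leaving out a replicate. Centring on medians and rescaling shift every gene by the same small amount (0.0135 for rescaling), so little could change there. All 28 values with a replicate left out were also within 1 SD. Leaving out 1 of 4 pairs cannot move their mean by 1 SD, so this count is no check. EEF2 alone changed sign, without replicate 4. All 35 member levels kept the main value. This outcome was fixed in advance, because the pair means are equal in every gene and centring shifts average out over the libraries. It is therefore no check of the levels. Depth is unknown, so that small differences of low genes such as EEF1D and EEF1A2 cannot be set against counting error.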
